A study of Homo sapiens with 6 samples.

Results

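The genes described here encode the inhibitors of the G1 cyclin-dependent kinases (CDKs) and the D-type cyclins that these inhibitors oppose. They are 3 CIP/KIP inhibitor genes (CDKN1A, CDKN1B and CDKN1C), 4 INK4 inhibitor genes (CDKN2A, CDKN2B, CDKN2C and CDKN2D) and 3 D-type cyclin genes (CCND1, CCND2 and CCND3). They were chosen by symbol and function, and each of the 10 had 1 entry among the 24462 gene symbols of the count files. The mRNA of 2 human lung epithelial cell lines was counted without treatment and after 48 h with 1 or 5 ng/mL transforming growth factor-β1 (TGF-β1). Each of the 6 conditions was 1 library, so differences are given with their counting error and no test across replicates was possible.

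A549 is a lung adenocarcinoma line and BEAS-2B is a bronchial epithelial line. Both were labelled wild type, although A549 is known to carry a deletion of CDKN2A and CDKN2B, and BEAS-2B was immortalized with an adenovirus-SV40 hybrid whose T antigen binds the RB and p53 proteins. Both lines were grown in RPMI1640 with 10% fetal bovine serum, and TGF-β1 was given in medium with 1% serum. The untreated libraries, labelled as control and with no treatment, served as the 0 ng/mL group of their line. The labels do not give the medium or the time in culture of these controls, so each ratio of a treated library to its control may also hold a change from 10% to 1% serum, and the 2 cannot be told apart. The same control library stands in the 1 and the 5 ng/mL comparison of a line, so those comparisons are not independent.

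D-type cyclins bind CDK4 and CDK6, and the kinases they form phosphorylate RB and release E2F factors for entry into S phase. INK4 proteins bind CDK4 and CDK6 and keep them from the D-type cyclins, whereas CIP/KIP proteins bind assembled cyclin and CDK complexes and above all inhibit CDK2. In epithelial cells TGF-β typically arrests growth in G1 through SMAD proteins, with induction of CDKN2B (p15INK4b) and CDKN1A (p21CIP1) as its best-known arms. Both arms act on the cell cycle through RB family proteins.

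The promoters of CDKN1A and CDKN2B are known to carry GC boxes bound by SP1, with which SMAD proteins cooperate. RefSeq start sites (build GRCh38.p14) were at hand for 7 of the 10 genes, those other than CDKN1C, CCND1 and CCND2, with 12 start sites in all. The GC box GGGCGG, read on both strands and with overlaps counted, lay in the 250 bases before 9 of these 12 start sites, and each of the 7 genes had it before at least 1 start site. It lay before 42.6% of all 35116 start sites. The CAGAC core of the SMAD binding element, also read on both strands, lay before 3 of the 12 start sites, compared with 38.0% of all. The stretches around the GC box nearest to the start site are shown for the 2 CIP/KIP genes that moved in opposite directions and for the 2 neighbouring INK4 genes that did the same in BEAS-2B cells. GC boxes are in capitals, each line reads 5′ to 3′ along the gene, and CDKN2A is shown at the start site nearer to CDKN2A exon 2, from which p16INK4a is made.
CDKN1A promoter, chr6:36678662-36678691, plus strand: cgggcccGGGCGGGGCGGttgtatatcagg
CDKN1B promoter, chr12:12717285-12717314, plus strand: ccagcctcggcgGGGCGGctcccgccgccg
CDKN2A promoter, chr9:21974877-21974906, minus strand: caccagagggtgGGGCGGaccgcgtgcgct
CDKN2B promoter, chr9:22009366-22009395, minus strand: acagcggacaggGGGCGGagcctaaggggg
The CDKN1A stretch held a pair of GC boxes that overlap by 1 base, and CDKN1A had 4 before its start site. CDKN2B had 2, and CDKN1B and the CDKN2A start site shown each had 1. The other CDKN2A start site had 0 GC boxes and 1 SMAD core. No SMAD core was found before the start sites of CDKN1A, CDKN1B or CDKN2B. As each of the 7 genes had the GC box before at least 1 start site, its presence could not be compared between genes that rose and genes that fell.

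The libraries held 4120624 to 7841350 counts, with the largest total in the A549 library at 1 ng/mL. Counts were scaled to a common library size and are called normalized counts, and the ND value is the log2 of the normalized count plus 1. Kits that prime at the 3′ end give about 1 read per transcript, so normalized counts can be set side by side between genes without a length correction. A gene was called when it differed by a fold change (FC) of at least 2 with an ND value of at least 7, or 127 normalized counts, in at least 1 of the 2 libraries. Genes known to respond to TGF-β moved with it: TGFBI, a matrix protein named for this induction, rose 7.64-fold in A549 and 6.08-fold in BEAS-2B cells with 5 ng/mL, and the fibronectin gene FN1 rose 2.92-fold and 15.6-fold. Of 9 alveolar type II markers at most 1 passed the minimum in a library, and of 5 bronchial basal markers none did. The surfactant genes SFTPA1, SFTPA2 and SFTPC were at 0 in every library, whereas the alveolar marker ABCA3 had 72, 255 and 194 counts in A549 cells. The basal keratin KRT14 was at 0 and KRT5 reached 1 count in BEAS-2B cells. Among epithelial markers KRT18 lay between 717 and 14592 counts, while in BEAS-2B cells CDH1 had at most 2 counts and EPCAM had 0.

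The 10 genes fell into those shared by the lines and those found in 1 of them. At 5 ng/mL, CDKN1A rose and CDKN1B fell in both lines. CDKN2A and CDKN2B were counted in BEAS-2B cells, where CDKN2A was called lower at 5 ng/mL and CDKN2B higher at 1 ng/mL, and were at or near 0 in A549 cells. CCND1 and CCND3 were several-fold higher in A549 than in BEAS-2B cells before treatment, and CCND1 was called higher at 5 ng/mL in BEAS-2B cells. Because these were bulk libraries, fewer cells that express a gene and less RNA per cell cannot be told apart.

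**Figure D1:**
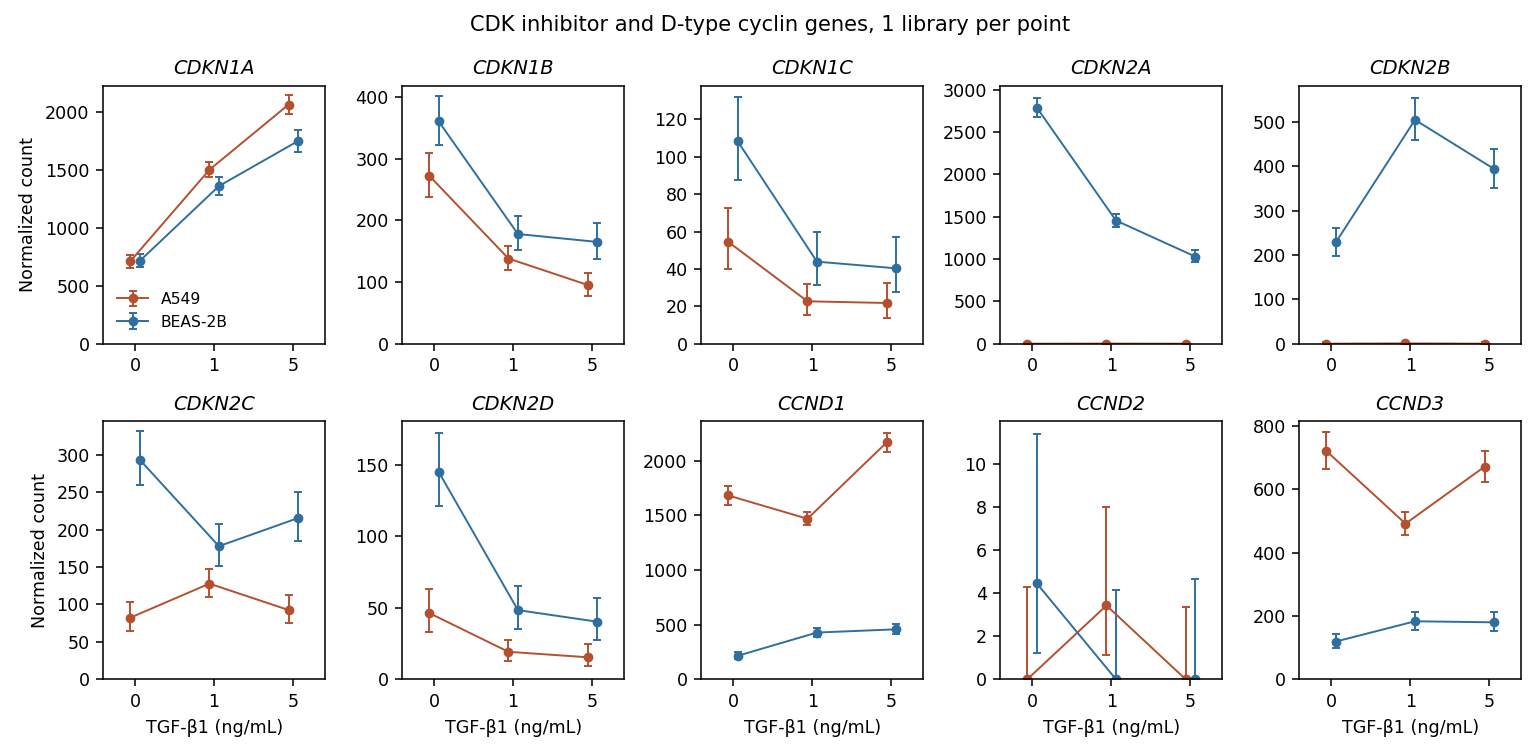
Normalized count (linear axis from 0, a separate scale for each gene) against TGF-β1 dose in ng/mL for the 10 genes, with A549 in brown and BEAS-2B in blue. Each point is 1 library, the bars are exact 95% Poisson counting intervals, and the lines only join the doses of a cell line. CDKN1A climbed in both lines from about the same level, CDKN1B and CDKN1C were lower in all 4 treated libraries than in their controls, and CDKN2A and CDKN2B lay at the axis in A549 cells.

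CDKN1A encodes p21CIP1, which is also a classical target of p53. Its normalized count was 710, 1501 and 2064 in A549 cells and 714, 1360 and 1750 in BEAS-2B cells at 0, 1 and 5 ng/mL. All 4 treated libraries lay above both controls, and each dose lay above the one before it in both lines. The ratio to the control at 5 ng/mL was 2.91 in A549 (exact 95% counting interval 2.66 to 3.18) and 2.45 in BEAS-2B cells (2.23 to 2.70). These intervals, like all intervals here, hold counting error only, since reads carried no molecular identifiers and no replicate was sequenced. The A549 ratio was above that of 93.7% of the entries past the minimum, and the BEAS-2B ratio above that of 95.7%. At 1 ng/mL the ratio was 2.11 (1.93 to 2.32) in A549 and 1.91 (1.73 to 2.10) in BEAS-2B cells, just above and just below the FC of 2. The A549 ratio divided by the BEAS-2B ratio was 1.11 (0.971 to 1.27) at 1 ng/mL and 1.19 (1.04 to 1.35) at 5 ng/mL. CDKN1A thus rose at 5 ng/mL in the line with CDKN2A and CDKN2B counts and in the line nearly without them. Of the difference at 5 ng/mL, 58.4% was present at 1 ng/mL in A549 and 62.4% in BEAS-2B cells.

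The A549 call of CDKN1A at 1 ng/mL depended on the scaling. Its log2 FC of 1.08 became 0.91 with scaling to total counts and 0.70 after removal of the trend of log2 FC over transcript GC content. The A549 value at 5 ng/mL was 1.54, and it was 1.33 and 1.09 under the same changes, which kept the call. After removal of the GC trend the BEAS-2B log2 FC was 0.85 at 1 ng/mL and 1.21 at 5 ng/mL. With this trend removed, the A549 rise was thus the smaller of the 2 lines at both doses.

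CDKN1B encodes p27KIP1, an inhibitor of CDK2 that is regulated largely through protein turnover. Its normalized count was 272, 138 and 95.3 in A549 cells and 360, 178 and 165 in BEAS-2B cells at 0, 1 and 5 ng/mL. Both treated libraries lay below the control in each line, opposite to CDKN1A. The ratio at 5 ng/mL was 0.350 (0.275 to 0.442) in A549 and 0.458 (0.371 to 0.563) in BEAS-2B cells, and both were called. The A549 library at 5 ng/mL was under the minimum of 127, so this call passed through its control alone. At 1 ng/mL the ratio was 0.507 (0.418 to 0.615) in A549, not called, and 0.493 (0.405 to 0.599) in BEAS-2B cells, called. Both 1 ng/mL values lay at the FC of 2 and their calls depended on the settings. The BEAS-2B log2 FC of -1.01 was -0.99 with DESeq2 size factors, -0.94 with upper quartile factors, -0.99 with a filter of 10 counts and just short of the FC of 2 with a pseudocount of 5, and was then not called. The A549 value of -0.97 was called with DESeq2 size factors (-1.02) and total counts (-1.14). In BEAS-2B cells 93.5% of the difference at 5 ng/mL was present at 1 ng/mL, compared with 75.8% in A549 cells. The intervals of the A549 ratio over the BEAS-2B ratio held 1 at both doses (0.779 to 1.36 and 0.555 to 1.05).

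CDKN1C, which encodes p57KIP2 and is imprinted in many tissues, was counted 47, 33 and 24 times in A549 and 97, 39 and 32 times in BEAS-2B cells. It stayed under the minimum in every library and could not be called. Its ratio at 5 ng/mL was 0.400 (0.234 to 0.667) in A549 and 0.373 (0.242 to 0.561) in BEAS-2B cells, so the treated libraries were lower than counting error alone would give.

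The 3 CIP/KIP genes together came to 1037, 1662 and 2181 normalized counts in A549 and 1182, 1582 and 1955 in BEAS-2B cells. CDKN1A made up 68.5%, 90.3% and 94.6% of these counts in A549 and 60.4%, 86.0% and 89.5% in BEAS-2B cells. The share of CDKN1B went from 26.3% to 4.37% in A549 (exact binomial interval at 5 ng/mL 3.59% to 5.26%) and from 30.5% to 8.44% in BEAS-2B cells (7.11% to 9.94%). The number of CDKN1A counts per CDKN1B count, which needs no scaling between libraries, was 2.61, 10.9 and 21.7 in A549 and 1.98, 7.65 and 10.6 in BEAS-2B cells.

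**Figure D2:**
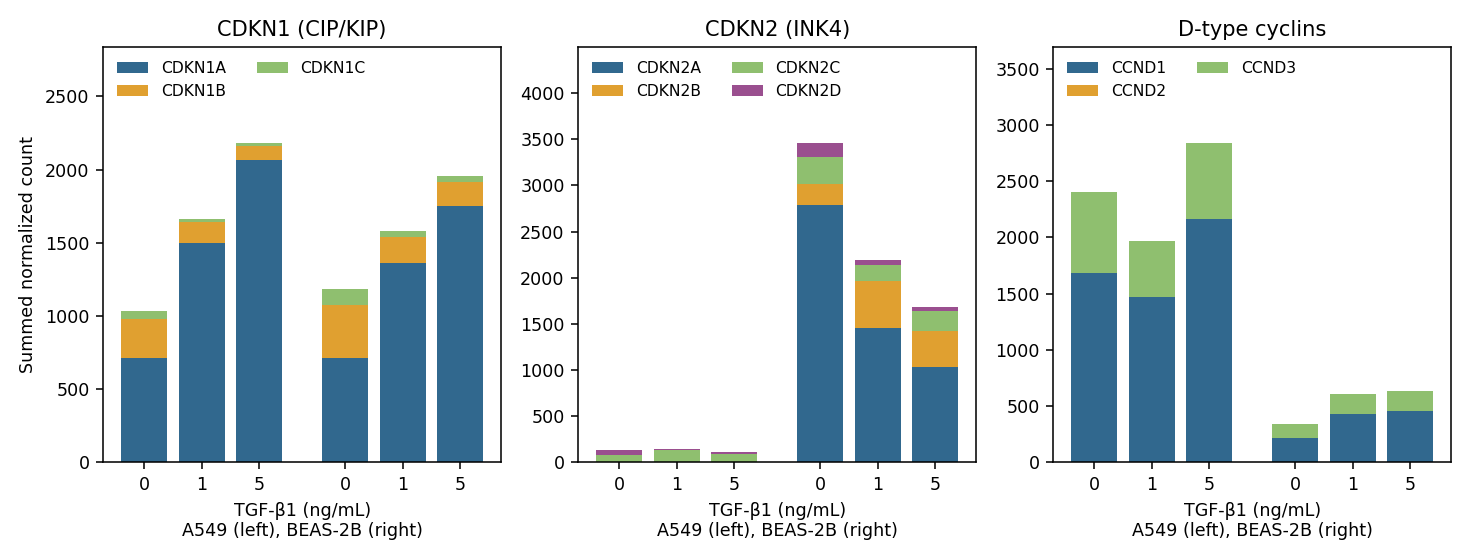
Summed normalized counts (linear axes from 0) of the CIP/KIP, INK4 and D-type cyclin genes in the 6 libraries, with TGF-β1 dose in ng/mL on the horizontal axis, A549 on the left and BEAS-2B on the right of each panel. Bar segments are single genes. CDKN1A took up most of the CIP/KIP sum after treatment, CDKN2A most of the INK4 sum in BEAS-2B cells, and CCND1 most of the D-type cyclin sum in each library.

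In summed counts the INK4 family differed most between the lines. The untreated A549 sum was 0.0372 (0.0305 to 0.0450) of the BEAS-2B sum for the INK4 genes, compared with 0.877 (0.801 to 0.960) for the CIP/KIP genes and 7.09 (6.28 to 8.02) for the D-type cyclins. This order rests on the genes known to be deleted in A549 cells, as CDKN2A alone made up 80.7% of the BEAS-2B control sum. The INK4 genes counted in both lines differed less than the D-type cyclins, with CDKN2C 3.57-fold and CDKN2D 3.13-fold lower in untreated A549 cells. CDKN2A encodes p16INK4a and, from another first exon, the p53 activator ARF. Both transcripts share their 3′ exons, so counts at the 3′ end cannot tell them apart. CDKN2A had 2502, 1294 and 818 counts in BEAS-2B cells at 0, 1 and 5 ng/mL and 0, 2 and 0 counts in A549 cells. In the BEAS-2B control its normalized count was 2791, above that of 99.1% of all entries. With 3 counts (3.48 normalized counts) set in place of its 0, the A549 control was 803-fold lower in CDKN2A. The exact interval of the ratio ended at 0.00153. In BEAS-2B cells the normalized count was 1456 at 1 ng/mL and 1030 at 5 ng/mL. CDKN2A fell at 5 ng/mL, with a ratio of 0.369 (0.341 to 0.400), and at 1 ng/mL its ratio of 0.522 (0.488 to 0.558) did not reach the FC of 2. The 1 ng/mL value was called with scaling to total counts (log2 FC -1.06) and after removal of the GC trend (-1.04), compared with -0.94 as reported.

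CDKN2B, which lies next to CDKN2A and encodes p15INK4b, moved the other way. It had 205, 449 and 313 counts in BEAS-2B cells, or 229, 505 and 394 normalized counts, and 0, 1 and 0 counts in A549 cells. Both treated BEAS-2B libraries lay above their control, and the highest value was at 1 ng/mL, not at 5 ng/mL. CDKN2B rose at 1 ng/mL with a ratio of 2.21 (1.87 to 2.62), and at 5 ng/mL the ratio was 1.72 (1.44 to 2.07), under the FC of 2. The 5 ng/mL library was at 0.780 (0.673 to 0.903) of the 1 ng/mL library. CDKN2B counts per CDKN2A count went from 0.0819 (0.0707 to 0.0945) to 0.347 (0.311 to 0.387) and 0.383 (0.335 to 0.436). Even so, CDKN2A remained the more abundant of the pair in each BEAS-2B library. Set at 3 counts, the A549 control was 65.8-fold lower in CDKN2B than the BEAS-2B control, and the exact interval of the ratio ended at 0.0189. Both genes are close paralogs, and how reads that fit both were handled is not given in the sources used here.

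Genes on either side of CDKN2A and CDKN2B on chromosome 9 were counted in A549 cells. In RefSeq order, KLHL9, IFNE and MTAP precede CDKN2A, and DMRTA1 and ELAVL2 follow CDKN2B. Counts directly after CDKN2B were low in both lines. DMRTA1 had 7, 15 and 5 counts in A549 and 0, 0 and 7 in BEAS-2B cells, and ELAVL2 had 0, 11 and 6 and 15, 0 and 3. KLHL9 had 254, 480 and 281 counts in A549 cells, and CAAP1, farther on the other side, had 172, 285 and 222. MTAP, a methionine salvage enzyme, had 26, 124 and 171 counts in A549 and 214, 160 and 116 in BEAS-2B cells. In normalized counts MTAP was 0.126 (0.0806 to 0.190) of the BEAS-2B level in the A549 control, and it rose 5.15-fold (3.40 to 8.11) at 5 ng/mL in A549 cells. How far the A549 deletion reaches is not given in the sources used here. Whether it includes part of MTAP, and what these MTAP counts stem from, cannot be told. The antisense RNA CDKN2B-AS1 had 14, 13 and 12 counts in BEAS-2B cells and 0, 0 and 1 in A549 cells, and CDKN2A-AS1 had 12, 30 and 22 and none. CDKN2B-AS1 overlaps CDKN2B, and the kit marks strand, but whether strand was used in counting is not given in the sources used here, so such reads may have been assigned to either gene. In A549 cells CDKN2A, CDKN2B and both antisense RNAs thus had at most 2 counts, and at 5 ng/mL 7 of 18 genes of the region passed the minimum in A549 and 5 in BEAS-2B cells. Of these, 2 were called higher in A549 (MTAP and MOB3B), where 16.1% of all entries were, and 1 lower in BEAS-2B cells (KLHL9), where 11.6% of all entries were. The median log2 FC of those that passed was 0.02 and -0.52. KLHL9 lay between 255 and 330 normalized counts in A549 and between 171 and 368 in BEAS-2B cells.

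**Figure D3:**
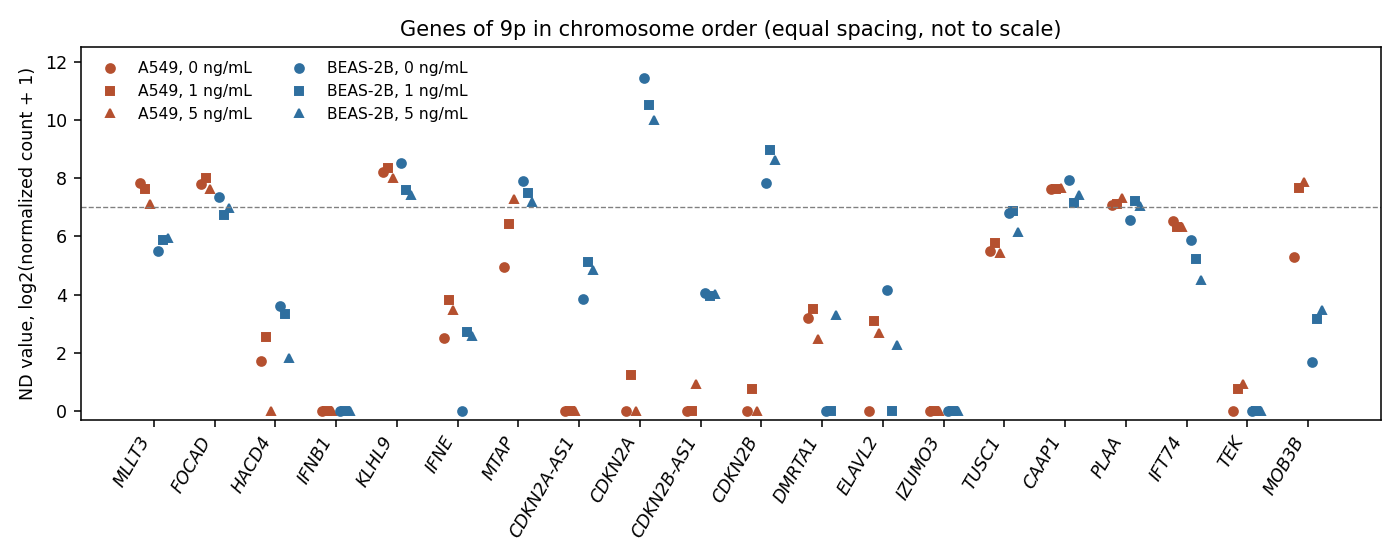
ND value, log2(normalized count + 1), of 20 genes of chromosome arm 9p in RefSeq order, equally spaced and not to scale, with A549 in brown and BEAS-2B in blue. Circles, squares and triangles are 0, 1 and 5 ng/mL TGF-β1, each 1 library, and the dashed line is the minimum ND value of 7. CDKN2A and CDKN2B stood high in BEAS-2B and near 0 in A549 cells, MTAP was low in the A549 control, and KLHL9 and CAAP1 lay above 7 in all 6 libraries.

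CDKN2C encodes p18INK4c and CDKN2D encodes p19INK4d. CDKN2C had a normalized count of 82.3, 128 and 92.5 in A549 and 293, 178 and 215 in BEAS-2B cells. Both treated libraries lay above the control in A549 and below it in BEAS-2B cells. None of these differences was called. At 1 ng/mL the ratio was 1.55 (1.18 to 2.07) in A549 and 0.606 (0.494 to 0.741) in BEAS-2B cells, and the first divided by the second was 2.56 (1.81 to 3.65). The A549 interval at 5 ng/mL held 1 (0.823 to 1.55), and its sign turned with scaling to total counts (log2 FC -0.03) and after removal of the GC trend (-0.28).

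CDKN2D had a normalized count of 46.3, 19.2 and 15.4 in A549 and 145, 48.4 and 40.3 in BEAS-2B cells. It was lower in each treated library than in its control. In BEAS-2B cells CDKN2D fell to 0.334 (0.231 to 0.474) at 1 ng/mL and to 0.278 (0.183 to 0.412) at 5 ng/mL, the lowest ratio among the genes called in that line, although it passed the minimum through its control alone. In A549 cells its ratios of 0.415 (0.247 to 0.690) and 0.333 (0.177 to 0.601) rested on 17 to 40 counts under the minimum. With CDKN2A and CDKN2B at or near 0, CDKN2C made up 64.0%, 85.7% and 85.7% of the INK4 counts in A549 cells, whereas in BEAS-2B cells CDKN2A made up 80.7%, 66.6% and 61.3%.

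The INK4 sum was 129, 149 and 108 normalized counts in A549 and 3458, 2187 and 1680 in BEAS-2B cells. The BEAS-2B sum was lower at each dose than at the one before. At 5 ng/mL it was 0.486 (0.455 to 0.518) of its control, with CDKN2A and CDKN2D called lower, CDKN2C at 0.734 (0.602 to 0.894) and CDKN2B at 1.72 of its control.

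Among the D-type cyclins, CCND1 (cyclin D1) was the most abundant in each library. Its normalized count was 1681, 1468 and 2166 in A549 and 215, 428 and 457 in BEAS-2B cells. The values of the lines did not overlap, and the lowest A549 value was at 1 ng/mL. In the controls CCND1 was 7.81-fold (6.72 to 9.12) higher in A549 cells. In BEAS-2B cells CCND1 rose at 5 ng/mL, with a ratio of 2.12 (1.78 to 2.54), and at 1 ng/mL its ratio of 1.99 (1.67 to 2.37) lay at the FC of 2 without reaching it. The 1 ng/mL log2 FC of 0.99 was called with DESeq2 size factors (1.01), upper quartile factors (1.06) and a filter of 10 counts (1.01). Scaling to total counts took the 5 ng/mL call away (log2 FC 0.95 in place of 1.08). In A549 cells the ratio was 0.873 (0.817 to 0.934) at 1 ng/mL and 1.29 (1.21 to 1.38) at 5 ng/mL, neither called and in opposite directions.

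CCND3 (cyclin D3) followed a like pattern at lower counts. Its normalized count was 722, 492 and 672 in A549 and 119, 183 and 180 in BEAS-2B cells, and the A549 control was 6.05-fold (4.92 to 7.50) higher. The treated libraries lay below the control in A549 and above it in BEAS-2B cells, with ratios at 1 ng/mL of 0.682 (0.611 to 0.760) and 1.54 (1.20 to 1.98) that were not called. The A549 ratio divided by the BEAS-2B ratio was 0.444 (0.336 to 0.583) for CCND3 and 0.440 (0.363 to 0.531) for CCND1 at 1 ng/mL. At 5 ng/mL it was 0.617 (0.465 to 0.817) and 0.607 (0.501 to 0.733). CCND2 (cyclin D2) had 0 to 5 counts in all 6 libraries, too few for a ratio.

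**Figure D4:**
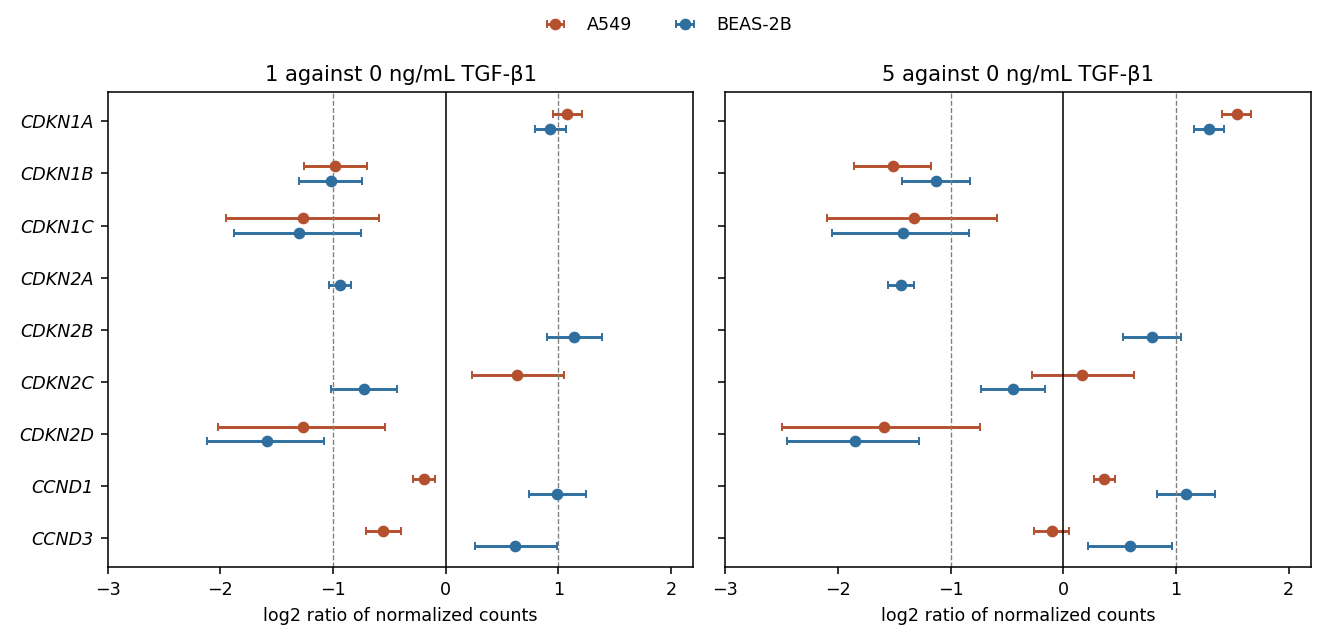
Log2 ratio of the normalized count to that of the control of the same line, at 1 ng/mL (left) and 5 ng/mL TGF-β1 (right), for 9 genes. Points are A549 (brown) and BEAS-2B (blue), bars are exact 95% counting intervals, and dashed lines mark an FC of 2. CDKN2A and CDKN2B have no A549 points because of 0 to 2 counts, and CCND2 is left out for the same reason. CDKN1A stood to the right and CDKN1B, CDKN1C and CDKN2D to the left in both lines, while the intervals of CDKN2C, CCND1 and CCND3 lay apart between the lines at 1 ng/mL.

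The counts of calls are set beside those of all entries past the same minimum. In A549 cells at 5 ng/mL, 4 of the 10 genes passed it, of which 1 was called higher (CDKN1A) and 1 lower (CDKN1B), where 16.1% of all entries were called higher and 17.1% lower. At 1 ng/mL, 5 passed and 1 was called higher (CDKN1A) and none lower, where the shares of all entries were 10.9% and 12.6%. In BEAS-2B cells at 5 ng/mL, 8 passed, 2 were called higher (CDKN1A and CCND1) and 3 lower (CDKN1B, CDKN2A and CDKN2D), where 7.33% of all entries were called higher and 11.6% lower. At 1 ng/mL, 8 passed, 1 was called higher (CDKN2B) and 2 lower (CDKN1B and CDKN2D), where the shares were 5.66% and 9.13%. Between the untreated lines 8 passed, 2 were called higher in A549 cells (CCND1 and CCND3) and 4 lower (CDKN2A, CDKN2B, CDKN2C and CDKN2D), where the shares were 18.1% and 18.9%. The calls of CDKN2A and CDKN2B were fixed beforehand by their known deletion in A549 cells. All 4 lower genes passed the minimum through the BEAS-2B library alone, and CCND3 passed through the A549 library alone. With the minimum in both libraries 1 gene was called. With so few genes, the counts of the A549 dose comparisons lay close to the shares of all entries. None of the 10 was called between 1 and 5 ng/mL in either line. The split of the calls moved with the scaling where genes lay near the FC of 2. For A549 at 1 ng/mL it was 1 higher and 1 lower with DESeq2 size factors and 0 higher and 1 lower with total counts. For BEAS-2B cells at 1 ng/mL it was 2 higher and 1 lower with DESeq2 size factors, 3 and 1 with upper quartile factors and 1 and 3 with total counts, and at 5 ng/mL it was 1 and 3 with total counts.

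Before treatment CDKN1A was level between the lines, at 0.995 (0.889 to 1.11), although it was 0.36 higher on the log2 scale in A549 cells after removal of the GC trend. CDKN1B was at 0.756 (0.636 to 0.897) of the BEAS-2B level and CDKN1C at 0.503 (0.347 to 0.720), neither called. CDKN2C was at 0.280 (0.213 to 0.366) and CDKN2D at 0.320 (0.218 to 0.459), both called through the BEAS-2B library alone. The 7 inhibitor genes together held 0.485 counts per D-type cyclin count in the A549 control (0.449 to 0.523) and 13.7 in the BEAS-2B control (12.2 to 15.4). With 1 and 5 ng/mL the figure was 0.922 and 0.807 in A549 and 6.17 and 5.70 in BEAS-2B cells. The figure was thus higher after treatment in A549 and lower in BEAS-2B cells, and it needs no scaling between libraries. In the BEAS-2B control CDKN2A gave 2502 of the 4160 inhibitor counts. CDKN1A counts per CCND1 count alone were 0.422, 1.02 and 0.953 in A549 cells. In BEAS-2B cells they were 3.32 in the control (2.82 to 3.92), 3.18 with 1 ng/mL (2.83 to 3.58) and 3.83 with 5 ng/mL (3.41 to 4.31), with intervals that overlap.

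Genes that act with these inhibitors were read from lists of the same pathway. Their calls and medians below are over the genes past the minimum in A549 and in BEAS-2B cells, and stand beside the 16.1% called higher and 17.1% lower of all entries in A549 and the 7.33% and 11.6% in BEAS-2B cells at 5 ng/mL. SKP2, the ubiquitin ligase subunit that targets p27KIP1 for breakdown, fell alongside CDKN1B. Its normalized count was 161, 86.6 and 55.3 in A549 and 464, 144 and 154 in BEAS-2B cells, and it was called in A549 at 5 ng/mL and in BEAS-2B cells at both doses. Of 14 genes for turnover of p21, p27, p57 and the D-type cyclins, 11 passed the minimum in A549 and 10 in BEAS-2B cells at 5 ng/mL. None was called higher in any treated library, 1 was lower in A549 at 5 ng/mL (SKP2) and 2 in BEAS-2B cells at 5 ng/mL (SKP2 and DDB1). The median log2 FC of the list at 5 ng/mL was 0.12 in A549, where that of all entries was 0.11, and -0.06 in BEAS-2B cells, where that of all entries was 0.03.

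The kinases differed between the lines. CDK2, the main target of the CIP/KIP proteins, rose 2.49-fold (2.21 to 2.81) in A549 at 5 ng/mL and was at 0.768 (0.720 to 0.818) in BEAS-2B cells. CDK6 rose 2.33-fold (2.12 to 2.57) in A549 cells at 5 ng/mL and was at 1.48 (1.22 to 1.79) in BEAS-2B cells, while CDK4 was at 1.66 and 0.972. Of 10 genes for G1 kinases and later G1 cyclins, 6 passed in A549 and 5 in BEAS-2B cells, and 2 were called higher (CDK2 and CDK6) and 1 lower (MNAT1) in A549 and none in BEAS-2B cells at 5 ng/mL, with a median log2 FC of 0.69 and -0.38. RB1, the substrate on which both inhibitor families converge, had a normalized count of 110, 22.0 and 24.5 in A549 and 163, 37.1 and 57.9 in BEAS-2B cells. It fell in BEAS-2B cells at both doses and stayed under the minimum in A549 cells. E2F1 rose 2.73-fold (2.18 to 3.45) in A549 and was at 0.811 (0.723 to 0.910) in BEAS-2B cells at 5 ng/mL. Of 13 RB family and E2F genes, 9 passed in A549 and 10 in BEAS-2B cells, with a median of -0.17 and -0.37. In A549 cells 1 was called higher (E2F1) and 2 lower (E2F4 and TFDP1). In BEAS-2B cells 1 was called higher (E2F7) and 1 lower (RB1). This split came in part from the minimum. E2F4 in BEAS-2B cells (ratio 0.327) and E2F7 (2.46) and RB1 (0.223) in A549 cells passed the FC of 2 under the minimum. Each moved as in the other line, with a counting interval that did not hold 1. TFDP1 was also lower in BEAS-2B cells, at 0.732, not called. Of the genes called here, only E2F1 moved in opposite directions.

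The 17 regulators of CDKN2B and CDKN1A transcription included MYC, whose product represses both genes through ZBTB17. MYC had 55, 47 and 27 counts in A549 and 20, 24 and 19 in BEAS-2B cells, under the minimum in each library. After scaling, A549 MYC was 0.507 (0.336 to 0.762) of its control with 1 ng/mL and 0.384 (0.233 to 0.620) with 5 ng/mL. For BEAS-2B the MYC ratio with 5 ng/mL was 1.07 (0.542 to 2.12). FOXO1, a partner of SMAD proteins on the CDKN1A promoter, rose 2.17-fold (1.67 to 2.84) and 6.40-fold (5.03 to 8.25) in A549 cells at 1 and 5 ng/mL and was at 1.04 and 1.19 in BEAS-2B cells. CEBPB, which acts on CDKN2B, fell to 0.399 and 0.220 in A549 cells and was at 1.12 and 1.97 in BEAS-2B cells. ID2 and ID3, inhibitors of differentiation factors, fell in BEAS-2B cells at both doses, and ID1 fell in A549 cells at both doses and in BEAS-2B cells at 5 ng/mL. At 5 ng/mL 12 regulators passed the minimum in A549 and 11 in BEAS-2B cells, and 1 was called higher (FOXO1) and 3 lower (CEBPB, KLF10 and ID1) in A549, and 1 higher (SMAD7) and 3 lower (ID1, ID2 and ID3) in BEAS-2B cells, with a median log2 FC of -0.39 and -0.35. In A549 cells SMAD7 was at 2.35 (1.49 to 3.84) and 4.31 (2.77 to 6.96) of its control with 1 and 5 ng/mL. It stayed under the minimum there, with 120 normalized counts at 5 ng/mL.

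CDKN1A is also read by p53, and genes of that arm were set beside it. Of 14 p53 genes, 11 passed in A549 and 10 in BEAS-2B cells, and 3 were called higher (TP53I3, SESN2 and PHLDA3) and 1 lower (GDF15) in A549 at 5 ng/mL. In BEAS-2B cells 4 were higher (TP53I3, SESN2, ZMAT3 and GDF15) and none lower, and the median log2 FC was 0.43 and 0.47. TP53I3 rose in all 4 treated libraries, at 5 ng/mL 4.58-fold in A549 and 3.80-fold in BEAS-2B cells, while MDM2 was at 0.965 and 1.28. GDF15 fell to 0.154 in A549 and rose 4.13-fold in BEAS-2B cells. Of 22 genes of S phase and mitosis, 21 passed in A549 and 22 in BEAS-2B cells, and 4 were called higher (MCM5, TOP2A, PLK1 and CDC20) and 2 lower (MCM2 and PCNA) in A549 at 5 ng/mL. None was higher and 3 were lower (CCNB2, RRM2 and FOXM1) in BEAS-2B cells, and the median log2 FC was 0.36 and -0.25. MCM5 was 3.49-fold and 1.13-fold its control, and RRM2 1.37-fold and 0.483-fold.

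Entries with the most similar profile were sought among 8159 entries past the minimum in at least 1 library, by the Euclidean distance of centred log2 values over the 6 libraries. BAX was nearest to CDKN1A, at a distance of 0.22, followed by PES1 at 0.28. ARHGEF12 was nearest to CDKN1B, at 0.17. SEC14L1 was nearest to CDKN2D, at 0.39, and SLC39A13 to CDKN2C, at 0.29. LRP3 was nearest to CCND1, at 0.46, and CHCHD10 to CCND3, at 0.35. CDKN2A had no near match, with BEX1 at 1.84 and GYPC at 1.91, and CDKN2B had PDPN at 0.79. With 6 libraries such distances describe likeness in these cells alone.

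Cell type markers also moved with dose. Of 6 epithelial markers, CDH1 had 640, 30 and 8 counts in A549 cells and at most 2 in BEAS-2B cells, and EPCAM was at 0 in BEAS-2B cells, while the sum of the 6, mostly keratins, was 25337 to 28857 normalized counts in A549 and 3236 to 4379 in BEAS-2B cells. Single keratins moved in opposite directions within this sum. In A549 cells at 5 ng/mL KRT7 rose 4.35-fold, while KRT8 fell to 0.230 and KRT18 was at 0.522 of its control. The summed normalized count of 4 airway secretory and ciliated markers was 718 in the A549 control and 5.50 and 4.54 after 1 and 5 ng/mL, with MUC5AC and MUC5B as its source and SCGB1A1 at 0 throughout. It lay between 0 and 5.63 in BEAS-2B cells. The sum of 9 alveolar type II markers was 89.2, 191 and 197 in A549 and 42.4, 7.88 and 6.30 in BEAS-2B cells. ABCA3 gave 83.4, 175 and 176 of it in A549 and 25.7, 5.63 and 3.78 in BEAS-2B cells. The 3 endothelial markers summed to at most 5.04 and the 3 immune markers to at most 59.1, the latter nearly all CD68, with CD3E at 0 throughout. The sum of 5 basal markers was at most 16.5. The part of these genes, and of the larger total of the A549 library at 1 ng/mL, in the values of the CDK inhibitors and D-type cyclins was not tested.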

How the data were processed

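QuantSeq 3′ mRNA libraries were made from 6 cultures, 1 per condition. The deposited files hold counts per gene symbol that the authors made with Bowtie2 and bedtools on hg19, per the submitters' processing notes. Versions, annotation and filters are not given in the sources used here. The files had 25737 entries, of which 286 symbols had more than 1. Totals were 4120624 to 7841350 counts.

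Library sizes were scaled with TMM (edgeR 4.0.16, R 4.3.3). Normalized counts are counts over the effective size times the mean effective size. Log2 FC used a pseudocount of 1, and entries with FC ≥ 2 were called, without a test, where 1 of the 2 libraries reached ND 7. Exact 95% intervals of ratios came from the binomial distribution of the 2 counts (scipy 1.17.1). For a count of 0, fold differences were taken with 3 counts in its place. Procedures were tested on simulated data. The 10 genes and all lists were chosen with earlier results of these data known. All 10 genes are reported. The rule for the lists named genes called in at least 1 comparison, by the size of their log2 FC. CDK4, MYC, MDM2 and the 9p genes outside it were named for their role after their values were seen. The nearest 2 entries were sought for genes past the ND minimum in at least 1 library. 4 older symbols of the 9p list did not match the files. A count over TGF-β response genes is not reported here. Promoter stretches came from RefSeq (GRCh38.p14). Because the files use hg19, no other coordinates are given. DESeq2 1.42.0 gave size factors for 1 alternative. GC content came from GENCODE v29 transcripts, longest per symbol.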

Additional observations from a re-analysis of the deposited data

Results flagged for a closer look

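The ratios of CDKN2C and CCND3 to their controls lay on opposite sides of 1 in the 2 cell lines at both doses, and none was called. For CDKN2C the ratio to the control was 1.55 at 1 ng/mL and 1.12 at 5 ng/mL in A549 and 0.606 and 0.734 in BEAS-2B cells. For CCND3 it was 0.682 and 0.931 in A549 and 1.54 and 1.51 in BEAS-2B cells. The difference between the lines was not tested, as each condition was 1 library and the doses of a line shared their control. At 5 ng/mL both A549 ratios had counting intervals that held 1. For CDKN2C in A549 cells at 5 ng/mL the log2 FC turned to -0.03 with scaling to total counts and to -0.28 after removal of the GC trend, the side of BEAS-2B cells.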

How the results depend on the processing

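No paired analysis was possible because each condition was 1 library, and for the same reason no library could be left out. 14 alternatives and 1 chosen after seeing the data (the trend of log2 FC over GC content removed in bins) were run on the calls of the 10 genes. Of 41 log2 FC values, 39 kept their sign under each alternative run on them, which were 8 for the treated libraries and 7 between the lines, where TMM within each cell line does not apply. The exceptions were CDKN2C in A549 at 5 ng/mL and CDKN1A between the untreated lines, both with counting intervals that held an equal level. Scaling to total counts moved the median log2 FC of all entries in A549 at 5 ng/mL from 0.11 to -0.14, and the members moved with it.

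The number of genes called changed by over 1.5 times as follows. For A549 at 5 ng/mL, 2 were called, which became 1 with the ND minimum in both libraries, 1 with ND values from CPM, 4 with no minimum and 0 at an FC of 3. For A549 at 1 ng/mL, 1 was called, which became 2 with DESeq2 size factors, 5 with no minimum, 3 at an FC of 1.5, 0 at an FC of 3 and 0 after removal of the GC trend. For BEAS-2B at 5 ng/mL, 5 were called, which became 2 with ND values from CPM and 1 at an FC of 3. For BEAS-2B at 1 ng/mL, 3 were called, which became 0 with ND values from CPM, 5 with no minimum, 8 at an FC of 1.5 and 0 at an FC of 3. Between the untreated lines 6 were called, which became 1 with the ND minimum in both libraries and 3 with ND values from CPM. These follow from the thresholds themselves, except for the size factors and the GC trend, for which the cause was not tested.

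CDKN1C and CCND2 in both lines and CDKN2D in A549 cells stayed under the minimum in each library. With 1 library per condition, differences between cultures cannot be told apart from effects of TGF-β1.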
